A study of Mus musculus with 16 samples.

Results

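The genes of mTOR signalling and autophagy followed here were measured in kidneys of mice labelled MFP2-/-, and were Mtor, Rptor, Rps6kb1, Ndrg1, Gabarap, Gabarapl1, Gabarapl2, Map1lc3a, Map1lc3b and Sqstm1. They were chosen by their symbols in the annotation of the array platform, together with how far each differed between mice, so the differences between mice below are a description. Of these 10 genes 9 had a probe, 18 probes in all of the 20355 on the arrays. Rps6kb1 had no probe under that symbol and was not analysed here. The 9 genes stood among 16140 rows of the tested table, of which 9846 were named genes and 6294 unnamed probes.

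Total kidney RNA of 4 male MFP2-/- mice aged 15 weeks was hybridised to two-colour cDNA arrays. The second channel of every array held RNA of 1 pool of 5 wild-type males aged 15 weeks, which the labels give as the Swiss strain SWR/Ola Hsd. The labels name no strain for the mutants beyond the genotype, so strain background and genotype cannot be told apart if they differ. Each mouse had 4 arrays, of which 2 held its RNA in Cy5 and the others held it in Cy3, which gave 16 arrays. Because the arrays of a mouse share its RNA, they were averaged and n is 4. MFP2, the product of Hsd17b4, is a peroxisomal enzyme that takes part in breaking down very long chain fatty acids. The pool is 1 control sample, so the spread among wild-type animals is not in any test. Values are log2 ratios, and positive ones are read as higher in MFP2-/- than in the pool. This direction is inferred and not stated. Its basis is the order of the channels in the labels, with the mutant first on every array. The sign of the extreme spots turned with the dyes. Real differences given as Cy5 over Cy3 would turn too, so that sign does not settle the direction. The log base was inferred.

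The arrays held 19737 to 20228 values each. A ratio to a pool holds no level, so the kidney label could not be checked against its markers and no gene's level can be set against another's. In whole kidney, fewer cells of a type and less RNA per cell cannot be told apart. The 2 probes named Hsd17b4, which would check the genotype, disagreed. Probe 1446 read 0.02, 0.83, 0.34 and 0.52 in mice 1 to 4, and probe 4590 read -1.69, -1.50, -0.10 and -0.34. The labels were therefore used as given. The titles and source names of mouse 1 carry different animal numbers.

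The mTOR kinase works in complexes that sense amino acids, growth factors and energy, and one of them, built around Raptor, drives protein synthesis through S6 kinase and holds back autophagy. In autophagy, small ubiquitin-like proteins of the LC3 and GABARAP families are attached to a growing membrane, and receptors such as p62 bind both them and the cargo. In kidney tubules autophagy is known for clearing damaged organelles and aggregated protein.

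Promoter sequences from RefSeq (GRCm38.p6) were matched for 8 of the genes, not for Ndrg1 and Map1lc3a, and cover 250 bases before and 50 after the start, on the gene's strand. Mtor and Gabarapl1 are shown as genes that spread between mice together, and Gabarap and Gabarapl2 as relatives of Gabarapl1 that did not. The capitals mark ACGTG on either strand, a form of the core letters of the hypoxia response element. Mtor lies at chr4:148448332-148448631, Gabarapl1 at chr6:129532942-129533241, Gabarap at chr11:69991120-69991419 and Gabarapl2 at chr8:111940453-111940752, all on the plus strand.
Mtor: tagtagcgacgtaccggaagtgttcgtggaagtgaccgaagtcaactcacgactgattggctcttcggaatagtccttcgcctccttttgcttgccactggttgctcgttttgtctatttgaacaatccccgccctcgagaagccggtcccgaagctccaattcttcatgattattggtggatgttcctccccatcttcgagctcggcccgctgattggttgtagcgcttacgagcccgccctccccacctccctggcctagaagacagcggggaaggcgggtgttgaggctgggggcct
Gabarapl1: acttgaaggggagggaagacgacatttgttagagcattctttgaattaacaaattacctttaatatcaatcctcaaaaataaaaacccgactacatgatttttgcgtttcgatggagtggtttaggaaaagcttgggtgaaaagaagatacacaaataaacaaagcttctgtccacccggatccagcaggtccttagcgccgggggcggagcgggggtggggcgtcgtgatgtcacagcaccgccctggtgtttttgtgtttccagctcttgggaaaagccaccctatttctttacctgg
Gabarap: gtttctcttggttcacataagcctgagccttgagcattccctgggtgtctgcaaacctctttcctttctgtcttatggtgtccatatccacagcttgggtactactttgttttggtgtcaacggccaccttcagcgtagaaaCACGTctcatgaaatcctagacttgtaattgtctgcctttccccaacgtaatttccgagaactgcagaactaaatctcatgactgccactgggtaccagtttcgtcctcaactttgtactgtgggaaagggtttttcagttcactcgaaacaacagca
Gabarapl2: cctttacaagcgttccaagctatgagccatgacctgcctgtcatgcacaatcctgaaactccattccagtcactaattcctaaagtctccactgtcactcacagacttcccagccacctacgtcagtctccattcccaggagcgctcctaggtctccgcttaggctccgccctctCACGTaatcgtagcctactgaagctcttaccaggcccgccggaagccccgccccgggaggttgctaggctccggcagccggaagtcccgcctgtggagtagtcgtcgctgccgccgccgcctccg

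The letters ACGTG stood in 3 of the 8 promoters, those of Rptor, Gabarap and Gabarapl2, against 19.6% of 32851 promoters of the same length. They were in neither of the promoters of Mtor and Gabarapl1. CACGTG, which holds ACGTG, stood in 0 of 8, against 7.15%. GTAAACA, a form of the FoxO motif, stood in 0 of 8, against 3.65%, on either strand. Other forms of the hypoxia and FoxO motifs were not searched, so these counts do not cover them. The matches are letters, not sites.

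Mtor, the kinase itself, had a log2 ratio of -0.84 in mouse 1, against 0.46, 0.32 and 0.29 in mice 2 to 4. The mean over the 4 mice was 0.06 ± 0.60 (SD), with a limma adjusted p of 0.935 against the pool and a 95% interval of the mean from -0.90 to 1.02. Mouse 1 lay 1.20 below the mean of the other mice, and the SD between mice was 3.83 times the SD between repeat arrays of 0.157. With the mutant in Cy5, the gene average in mouse 1 was -0.12 and -0.61 on its arrays, and with the mutant in Cy3 it was -1.29 and -1.33. Mouse 2 gave 0.45 and 0.60 in Cy5 and 0.45 and 0.35 in Cy3. Every array of mouse 1 was negative and every array of mouse 2 positive. Mouse 3 gave 0.32 and 0.56 in Cy5 and 0.14 and 0.26 in Cy3. Mouse 4 gave 0.61 and 0.38 in Cy5 and 0.11 and 0.06 in Cy3. The arrays of mouse 1 did not overlap those of the other mice.

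The 3 Mtor probes did not show this alike. Probe 216 read -1.55, 0.59, 0.54 and 0.44 in mice 1 to 4, an SD of 1.04 against 0.270 between repeats. Its arrays of mouse 1 read -0.65, -1.06, -1.86 and -2.61, and the arrays of the other mice lay between 0.13 and 0.73, with no overlap. Probe 126 read -1.13, 0.65, 0.37 and 0.23, with arrays of mouse 1 from -2.06 to -0.10 and those of the other mice from -0.01 to 0.93. These arrays, too, did not overlap. Probe 16428 read 0.16, 0.15, 0.05 and 0.19, an SD of 0.063 against 0.156 between repeats. Its arrays of mouse 1, from 0.07 to 0.38, lay inside the range of the other mice, from -0.27 to 0.72. Over the 16 arrays, with the mean of each dye orientation removed, probes 126 and 216 had a Pearson r of 0.914, against 0.015 for probes 126 and 16428 and -0.17 for probes 216 and 16428. Arrays share mice and the pool, so these are descriptions. All 3 probes carry 1 gene identifier, and the stretch of the transcript that each covers was not used here. The low value of mouse 1 therefore rests on 2 of the 3 probes.

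**Figure D1:**
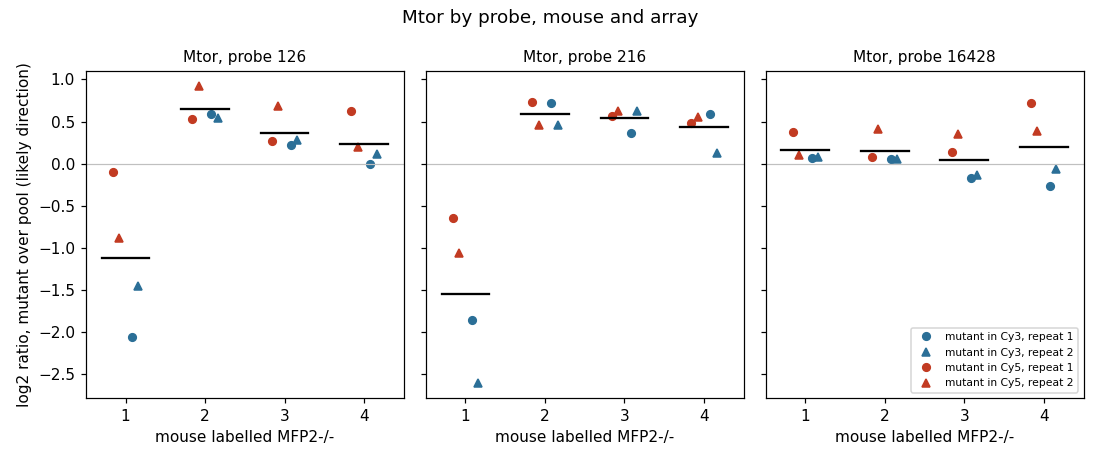
Log2 ratio of MFP2-/- over pool (vertical axis) of the 3 Mtor probes, by mouse (horizontal axis), with 1 point per array, marked by dye orientation and repeat, and lines for mouse means. In probes 126 and 216 the arrays of mouse 1 lie below all others, and in probe 16428 they lie among them.

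The result also depends on the direction read into the values. Read as Cy5 over Cy3 on every array, which turns the sign where the mutant was in Cy3, the SD of Mtor between mice was 0.18 and its mean 0.21. In that reading Ndrg1 had an SD of 0.134 and Gabarapl1 of 0.0725. Over all probes, the median Spearman correlation between mice was 0.184 for arrays with the same dyes, with a lowest rho of -0.017, and -0.10 for arrays with swapped dyes. Within a mouse it was 0.338 for arrays with the same dyes and -0.157 for arrays with swapped dyes. Were true differences larger than dye effects, ratios of mutant over pool would correlate positively between swapped arrays of a mouse. Here their median was negative. A strong dye effect and the other direction cannot be told apart from these values.

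Rptor encodes Raptor, the scaffold that brings substrates to mTOR. It had 0.05, -0.01, -0.09 and 0.00 in mice 1 to 4, a mean of -0.01 ± 0.06 (limma adjusted p of 0.955), with a repeat SD of 0.112. Its spread between mice was smaller than that between repeats, in both of its probes.

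Ndrg1, a stress-responsive gene whose protein is a substrate of SGK1, a kinase downstream of the second mTOR complex, had 1 probe. Its log2 ratio was -0.88 in mouse 1, against 0.44, 0.28 and 0.04 in mice 2 to 4. In the order Cy5 repeats and then Cy3 repeats, the arrays of mouse 1 read -0.69, -0.49, -1.09 and -1.25. Those of mouse 2 read 0.36, 0.53, 0.46 and 0.42. The arrays of mouse 1 lay below all others, of which the lowest was -0.38. Mouse 3 read 0.47, 0.41, 0.03 and 0.24, and mouse 4 read 0.32, 0.32, -0.09 and -0.38. The SD between mice of 0.59 was 4.96 times the repeat SD of 0.119. The mean was -0.03 ± 0.59 (limma adjusted p of 0.971), and without mouse 1 it was 0.26 ± 0.20.

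The ATG8 family attaches to autophagosome membranes. Its member Gabarapl1 had -0.20, 0.94, 0.42 and 0.46 in mice 1 to 4, a mean of 0.41 ± 0.47. The limma adjusted p was 0.562, with an unadjusted p of 0.0595. Read as Cy5 over Cy3, its mean was 0.12. The arrays of mouse 1, Cy5 repeats first, read 0.14, -0.09, -0.41 and -0.43. Those of mouse 2 read 0.84, 1.21, 0.83 and 0.89. In this average of 3 probes, all arrays of mouse 1 lay below, and all arrays of mouse 2 above, those of the other mice. Mouse 3 read 0.26, 0.70, 0.30 and 0.44, and mouse 4 read 0.58, 0.57, 0.32 and 0.37. Its 3 probes gave the same order for the extremes, at -0.11, -0.11 and -0.37 in mouse 1 and at no less than 0.90 in mouse 2. Single arrays overlapped more. In probes 11047 and 11050 the arrays of mouse 1 reached 0.34 and 0.05, above the lowest of the other mice, at 0.19 and -0.14. In each of the 3 probes, arrays of mouse 2 overlapped those of another mouse. Without mouse 1 the mean was 0.61 ± 0.29, with a limma adjusted p of 0.539.

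Map1lc3b encodes LC3B, the form of LC3 most used to mark autophagosomes. It had 0.05, 0.46, 0.12 and 0.37, a mean of 0.25 ± 0.20, positive in all 4 mice and in both probes. Its limma unadjusted p was 0.0293 and its adjusted p 0.548. It was the only one of the 9 under an unadjusted 0.05, where 9.04% of all rows stood, 5.83% higher and 3.21% lower. In mouse 1 Map1lc3b read 0.29 in Cy5 and -0.19 in Cy3, and in the other mice it was positive in both orientations. Read as Cy5 over Cy3, its mean was 0.11. Map1lc3a, which encodes a second LC3, had -0.05, -0.02, 0.17 and 0.14, a mean of 0.06 ± 0.11 (limma adjusted p of 0.766). Gabarap, the founding member of its subfamily, had -0.19, 0.09, 0.13 and -0.07, a mean of -0.01 ± 0.14 (limma adjusted p of 0.971). Both had an SD between mice close to or below their repeat SD, of 0.106 for Map1lc3a and 0.174 for Gabarap.

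Gabarapl2, also called GATE-16, had -0.11, -0.24, 0.06 and -0.15, a mean of -0.11 ± 0.13 (limma adjusted p of 0.632). Its 2 probes disagreed in mouse 2, at 0.51 for probe 17078 and -0.99 for probe 18229. Probe 18229 lacks 1 value in mouse 2, so the mean of Cy5 arrays there rests on 1 array, and its repeat SD was 0.645. The 2 probes together do not settle a direction for this gene.

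Sqstm1 encodes p62, the receptor that links cargo to LC3. It had -0.20, 0.27, 0.06 and 0.02, a mean of 0.04 ± 0.19 (limma adjusted p of 0.892), with a repeat SD of 0.121. Probes 17497 and 18266 read -0.34 and -0.24 in mouse 1, against 0.39 and 0.34 in mouse 2. Probe 308 read -0.02 in mouse 1 and 0.09 in mouse 2, with an SD between mice of 0.055. As for Mtor, 2 of 3 probes carried the difference.

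**Figure D2:**
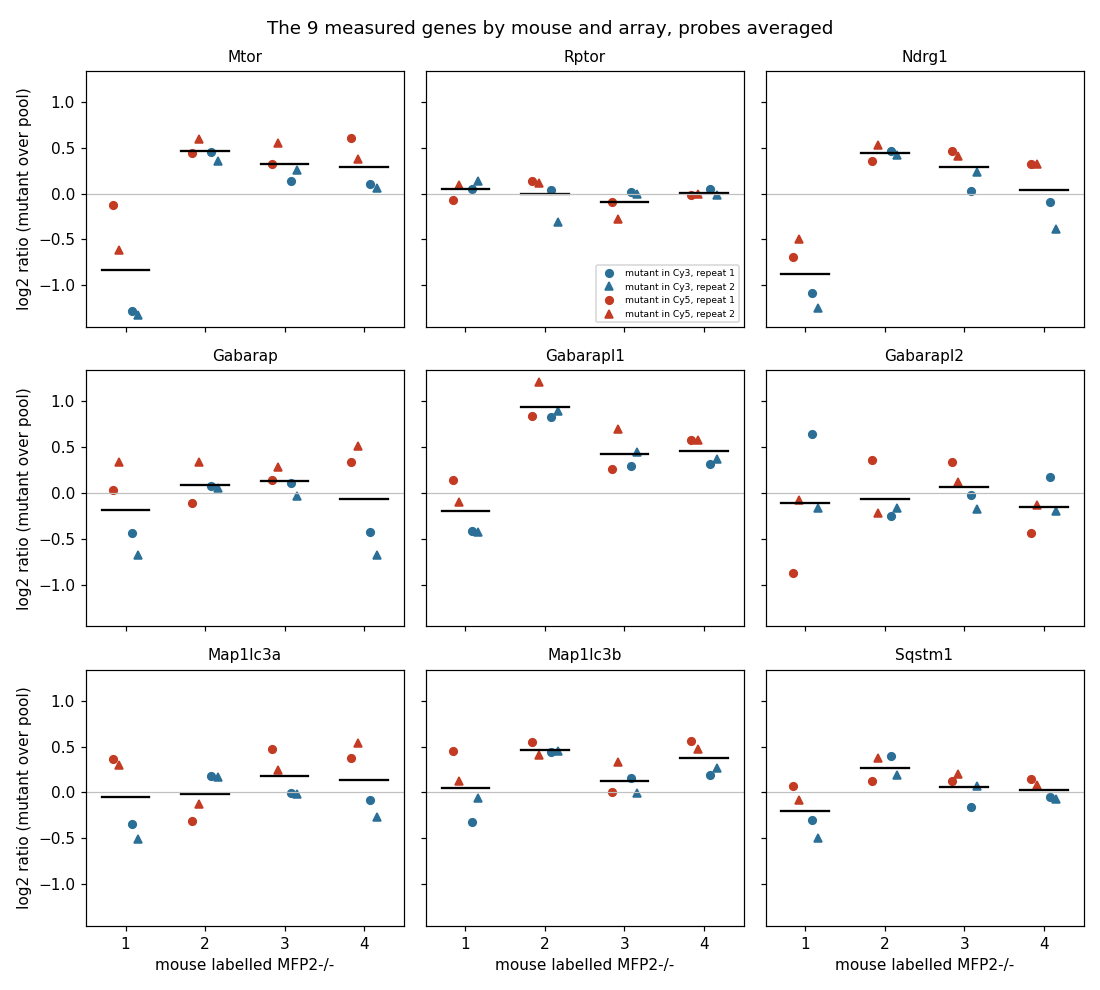
Log2 ratio of MFP2-/- over pool (vertical axis) of the 9 measured genes, by mouse (horizontal axis), with points for arrays by dye orientation and repeat, and lines for mouse means. Mtor, Ndrg1 and Gabarapl1 are lowest in mouse 1, and for Gabarapl2 the line of mouse 2 differs from the -0.24 of the text because 1 of its arrays holds 1 probe.

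Across the 9 genes, 7 were lowest in mouse 1, where 24.7% of all rows were, and 5 were highest in mouse 2, where 31.0% were. Read as Cy5 over Cy3 the order turned: 1 of the 9 was lowest in mouse 1, against 24.7% of rows, and 6 were highest there, against 23.7% of rows. Mtor then read 0.47, 0.06, 0.12 and 0.21 in mice 1 to 4. Limma's F-test between mice called 3 of them, Mtor, Ndrg1 and Gabarapl1, and 0.189% of all rows. The genes were chosen on this spread, so nothing is read from that count. The median row had an SD between mice of 0.148, a repeat SD of 0.253 and a ratio of these SDs of 0.548. Against the pool limma called 0 of the 9, and 0% of all rows, with 5 means above 0 and 4 below. Read as Cy5 over Cy3, 7 were above 0 and 2 below.

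**Figure D3:**
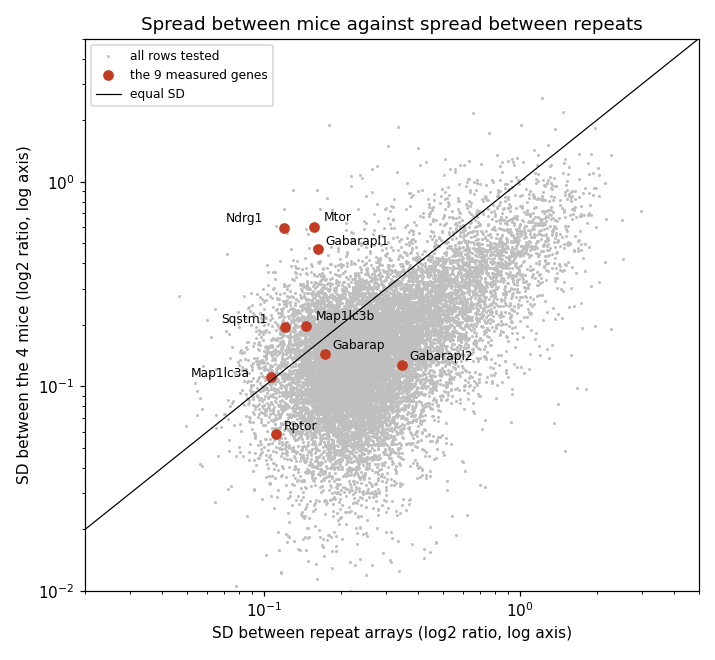
SD between the 4 mice against SD between repeat arrays, both of log2 ratios on log axes, for every row and the 9 genes. Among the 9 genes, Mtor, Ndrg1 and Gabarapl1 lie farthest above the line of equal SD, and some other rows lie farther above it.

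**Figure D4:**
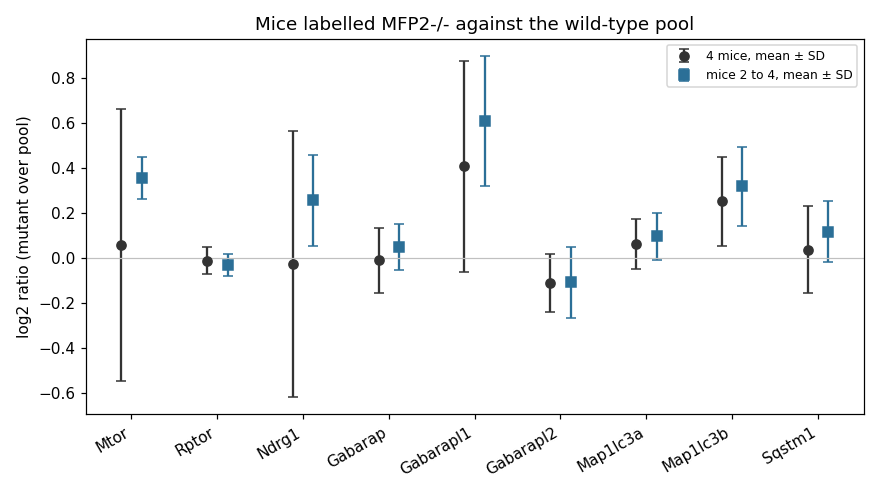
Mean log2 ratio of MFP2-/- over pool (vertical axis) of the 9 genes (horizontal axis) over 4 mice and over mice 2 to 4, with bars for the SD. Over 4 mice the bars of all but Map1lc3b cross 0, and the bar of Mtor is shorter without mouse 1.

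Some of the genes varied together over arrays. With the mean of each orientation removed, Mtor had a Pearson r of 0.934 with Ndrg1, 0.898 with Gabarapl1, 0.841 with Sqstm1 and 0.700 with Map1lc3b over 16 arrays. Ndrg1 and Map1lc3b had 0.538. Arrays share mice and the pool, so these give no more than the order of 4 mice. Of 9059 genes with all 16 values, those most like Mtor were Ces2g, a carboxylesterase (r of 0.950), Ndrg1 (0.934), Dnase1, a deoxyribonuclease (0.931), and Hbb-bh2, a globin (0.925). Ces2g had -0.56 in mouse 1 and 0.49 in mouse 2. Those most like Ndrg1 were Ces2g (0.941), Lgmn, a lysosomal protease (0.940), Mtor and Ptpmt1, a mitochondrial phosphatase (0.915). Those most like Gabarapl1 were Tmem59 (0.956), Itfg1 (0.951), S100a10, a partner of annexin A2 (0.946), and Rab2a, a small GTPase (0.933).

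Dye orientation moved some of the genes. Limma's dye term called 3 of the 9, Mtor, Ndrg1 and Gabarap, where 8.4% of all rows were called. All 3 read higher with the mutant in Cy5, and 3.69% of rows were both called and higher in that orientation. Called or not, 7 of the 9 were higher in it, against 46.4% of rows. The difference was 0.43 for Mtor (limma adjusted p of 0.0418), 0.36 for Ndrg1 (limma adjusted p of 0.0389) and 0.49 for Gabarap (limma adjusted p of 0.0435). Without mouse 1, mouse 3 or mouse 4 none of these calls held, and without mouse 2 Map1lc3a was called as well, which made 4. Without centring 7 of the 9 were called, and 2740 of 15856 rows, against 1332 with it. Of these 2740 rows, 2079 were higher with the mutant in Cy5. The median dye term over all rows was then 0.07, against -0.03 with centring. The low Mtor value of mouse 1 was present in both orientations, at -0.37 in Cy5 and -1.31 in Cy3, as was that of Ndrg1, at -0.59 and -1.17.

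Medians of cell type markers are given by mouse. The 8 measured proximal tubule markers had a median of -0.04 in mouse 1, against 0.31, 0.10 and 0.25 in mice 2 to 4, with 4 of the 8 lowest in mouse 1. The 5 markers of podocytes and endothelium had a median of 0.05 in mouse 1, over the 4 with a value there, against 0.40, 0.10 and 0.27. Of those 4 markers, 1 was lowest in mouse 1. Of 5 markers of distal tubule and collecting duct the medians were 0.34, 0.00, 0.10 and 0.21, and of 2 red cell genes -0.33, -0.29, -0.22 and 0.00. By median, mouse 1 was lowest in the proximal tubule, podocyte and endothelium, red cell and, narrowly, immune lists. It was highest in the distal tubule and collecting duct, loop of Henle and muscle lists. Most of the 5 distal tubule and collecting duct markers were, however, highest in another mouse. The medians of 3 loop of Henle markers were 0.39, -0.01, 0.05 and 0.03, with 1 of these markers lacking a value in mouse 3. The medians of 6 immune markers were -0.06, 0.02, -0.06 and 0.05, and those of 6 adrenal markers 0.04, -0.03, 0.30 and -0.06. Those of 7 fat markers were 0.09, 0.07, 0.13 and -0.08, and of 5 muscle markers 0.08, 0.02, -0.01 and -0.01. Limma's F-test between mice called 1 proximal tubule marker and 1 adrenal marker, named here after their values were seen. Miox, an oxygenase, read -0.25, 1.25, 0.67 and 0.98 (limma adjusted p of 0.0332). Star, a cholesterol carrier, read 0.20, -0.75, 0.64 and -0.04 (limma adjusted p of 0.00916). The other proximal tubule markers were not alike: Napsa, which had the smallest p against the pool, was highest in mouse 1, at 0.41, 0.28, 0.16 and 0.38. Their part in the Mtor, Ndrg1 and Gabarapl1 values was not tested.

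Lists of mTOR and autophagy genes gave the surroundings of the 9. Of 195 listed genes 132 others were measured, and limma called 0 of them against the pool or between mice. At an unadjusted p under 0.05, 9 were higher and 1 lower, 7.58% of them against 9.04% of all rows. Of the 132, 77 means were above 0 and 55 below, with a median of 0.02, and 36.4% were lowest in mouse 1.

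Among upstream genes, the lists stayed near 0. The 8 measured mTOR complex subunits had a median of -0.02, with Mapkap1 at -0.12 ± 0.07 and Prr5 at -0.12 ± 0.12, both subunits of the second complex. In the amino acid branch 10 of 17 were above 0, with Flcn, folliculin, at 0.31 ± 0.18 and a repeat SD of 0.487, and Sec13, a subunit of GATOR2, at 0.18 ± 0.23. In the growth factor and energy branch 14 of 26 were above 0, with Sesn2, a sestrin that restrains the first complex, at 0.13 ± 0.08 and Prkag2, a subunit of AMP-activated kinase, at 0.20 ± 0.22. None of these passed limma's adjusted threshold.

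Downstream, 15 effectors had a median of 0.03, and 10 were lowest in mouse 1, against 24.7% of all rows. The 15 include Ndrg1, which was chosen on its spread between mice. Ndrg2, a relative of Ndrg1, had 0.22 ± 0.11, and Sgk2, a kinase related to SGK1, had 0.28 ± 0.25 with orientation means of 0.61 in Cy5 and -0.04 in Cy3. Of 17 initiation genes 12 were above 0, with Becn1, the core of the nucleation complex, at 0.17 ± 0.14 and Atg9a, a membrane protein of early autophagosomes, at 0.19 ± 0.10 with a repeat SD of 1.82. Of 7 conjugation enzymes 5 were below 0, with Atg12 at -0.12 ± 0.15 and Atg5, to which it is joined, at -0.09 ± 0.09.

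The 12 autophagy receptors had a median of 0.14, with 9 above 0, as were 50.1% of all rows, and 4 higher at an unadjusted p under 0.05, as were 5.83% of all rows. Read as Cy5 over Cy3 the median was 0.071, with 8 above 0 and 0 higher at that p. Bnip3, a mitophagy receptor, read -0.08, 0.75, 0.45 and 0.46, and Nbr1, a relative of p62, 0.19 ± 0.06 with -0.01 in Cy5 and 0.39 in Cy3. Tollip, an adaptor, read 0.73, 0.02, 0.70 and 0.22, with mouse 2 lowest and a mean of 0.42. Its orientation means had the opposite sign, at -0.079 in Cy5 and -0.076 in Cy3. The mouse values and the orientation means of Tollip thus do not rest on the same values, and no direction is read for it. Tollip is 1 of the 4 receptors counted as higher above, with a limma unadjusted p of 0.0226. Of 13 fusion genes 10 were above 0, and the SNARE partners Snap29 and Stx17 had -0.23 ± 0.31 and 0.11 ± 0.05. Hypoxia targets had a median of 0.00 over 11 genes, with Vegfa at 0.21 ± 0.12, FoxO targets -0.02 over 8, with Bcl6 at -0.16 ± 0.14, and glucocorticoid targets -0.06 over 9, with Zbtb16 at -0.21 ± 0.25 and Dusp1 at -0.12 ± 0.07. All genes named from these lists had a limma adjusted p of at least 0.548.

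**Figure D5:**
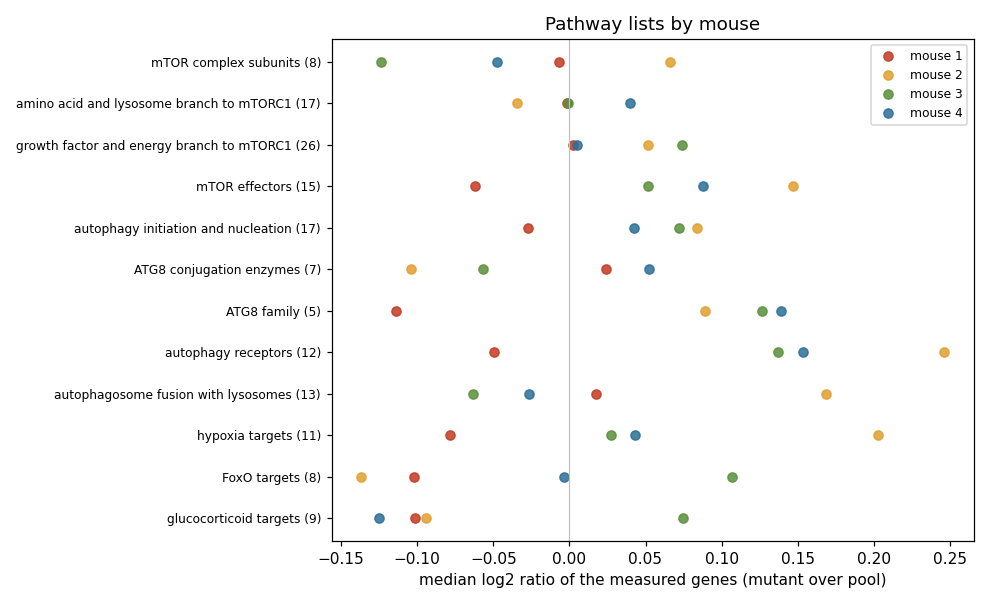
Median log2 ratio of MFP2-/- over pool (horizontal axis) of each gene list (vertical axis, with its number of measured genes), with 1 point per mouse. In 6 of the 12 lists the median is lowest in mouse 1, among them the ATG8 family, the effectors and the autophagy receptors. The ATG8 family holds only genes chosen on their spread between mice.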

How the data were processed

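The authors deposited 1 column of log2 ratios per array, for 16 arrays, 1 value per probe. How these were normalised and corrected for background is not stated in the labels, nor are the base and direction. No intensities were used, so signal over background is unknown. Per the labels, RNA was labelled with Cy3 or Cy5 in both orientations. Here, values over 10 in absolute size were set to missing, each array was centred on its median, and a mouse's value was the mean of its 2 orientation means. Probes measured in both orientations in 3 or more mice were kept, and those of 1 symbol were averaged. Probe symbols came from the platform annotation, updated through RefSeq (GRCm38.p6), and 14030 of 20355 probes carried 1 symbol. The 4 mouse values were tested against 0 with two-sided tests by limma 3.58.1 (lmFit and eBayes, R 4.3.3), adjusted by Benjamini-Hochberg at 0.05. Differences between mice and the dye term used all 16 arrays. All genes were fitted together. Scripts were tested on simulated data. The members and gene lists were chosen with earlier results of these data known. Named genes were all members, of each list the 2 non-members with the smallest p, and the 4 genes most like each of Mtor, Ndrg1 and Gabarapl1. Hsd17b4, Miox, Star and Napsa were named outside this rule, the last 3 after their values were seen. Alternatives covered centring, scaling, probes, missing values, extreme values, direction, the repeat block, single orientations, a random block for mouse, the dye term and leaving out mice or arrays.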

Additional observations from a re-analysis of the deposited data

Results flagged for a closer look

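For Mtor, the gap of mouse 1 to the nearest mouse, divided by the whole range, was 0.866. The genes were chosen on this spread, so the value is a description and no test. Mtor was higher by 1.30 in mouse 2, 1.16 in mouse 3 and 1.13 in mouse 4 than in mouse 1, with every array of mouse 1 on the other side of 0. Ndrg1 was higher by 1.32 in mouse 2 and 1.16 in mouse 3 than in mouse 1, on the same basis. These single differences were not tested, and limma's F-test between mice used the same values the genes were chosen on, so they are descriptions. For Rptor, 1 array of mouse 4 stood apart from the others, with a gap of 0.840 of their range. These arrays ran only from -0.02 to 0.05, a range smaller than the repeat SD of Rptor, 0.112. For Gabarapl2, 1 array of mouse 2 stood apart, with a gap of 0.857 of their range, where probe 18229 lacks its value on 1 array. Of 45 groups of 4 values, Mtor included, 3 passed Dixon's critical value, and chance passes about 1 in 20.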

How the results depend on the processing

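Against the pool, 0 rows were called, also without centring, under scaling by median absolute deviation, with single probes, with extremes kept, with the replicate block and without each mouse. The count was 12 when read as Cy5 over Cy3, 3 with the mutant in Cy5 alone and 1 with it in Cy3 alone. With the mouse as a random block it was 222, and Map1lc3b had a limma adjusted p of 0.0516 and Gabarapl1 of 0.0673. That fit used 1 correlation within mice, of 0.036, for all rows, so it took the arrays of a mouse as nearly independent. For genes that differ between mice, such as Gabarapl1, its p can be too small. Between mice 30 rows were called, against 16 under scaling, 48 with single probes, 51 with probes on all arrays, 2 as Cy5 over Cy3, 16 with the replicate block and 4 with no dye term. Leaving out 1 mouse or array gave 5 to 122 between mice, 5 without mouse 1 and 122 without the first Cy5 array of mouse 2, and 73 without the first Cy5 array of mouse 1. The dye term called 1332, 2740 without centring and 44 to 2701 without 1 mouse, the last without mouse 2. The repeat numbers did not pair the arrays: of 28 pairs of repeat differences the correlation ran from -0.08 to 0.12.

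Across 11 settings, 19 means of 7 of the genes changed sign, all with limma adjusted p above 0.05. Gabarap was 0.0069 under scaling, Rptor 0.0078 in probe 4896 and Gabarapl2 0.12 in probe 17078 and with probes on all arrays. Read as Cy5 over Cy3, Ndrg1 was 0.18 and Gabarap 0.24; in Cy5 alone they were 0.15 and 0.23. In Cy3 alone Mtor was -0.16, Map1lc3a -0.11 and Sqstm1 -0.054. Without 1 mouse, Mtor ran from -0.077 (without mouse 2) to 0.36 (without mouse 1), Rptor from -0.032 to 0.015 (without mouse 3), Ndrg1 from -0.18 to 0.26 (without mouse 1), Gabarap from -0.054 to 0.05 (without mouse 1) and Sqstm1 from -0.041 (without mouse 2) to 0.12. Mtor was also below 0 without mouse 3 or mouse 4, and Gabarap above 0 at 0.0096 without mouse 4. The cause was not tested. Some of these settings hold fewer arrays or probes, but scaling and the reading as Cy5 over Cy3 do not. Signal over background is unknown, and the number of mice limits the precision.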
